A study of Mus musculus with 64 samples.

Results

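The comparison is between ventricles of control mice taken 12 h apart, at zeitgeber time 15 (ZT15) and at zeitgeber time 3 (ZT03). Zeitgeber time counts hours from lights on, so by convention ZT15 falls in the active night of a mouse and ZT03 in its daytime rest. The 8 libraries were chosen by their titles, 4 labelled CON at ZT15 and 4 labelled CON at ZT03, out of 64 in the series. CON stands for male C57BL/6 littermate controls of mice that lack E4BP4, the product of Nfil3, in cardiomyocytes (CEK). The alleles that the controls carry, the driver of the deletion, the age of the mice and the light and feeding schedules are not stated by the labels. Each library is one biological replicate of tissue from both ventricles. The other 24 CON libraries, 4 at each of 6 other times, and the 8 CEK libraries at ZT15 and ZT03 were used only for the comparisons named below. Of 48795 gene rows, 14716 had enough counts to be tested, and 118 of them (0.802%) passed edgeR's quasi-likelihood test at a Benjamini-Hochberg adjusted p of 0.05. These are called higher or lower below.

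Counts on genes were 19.4 to 27.4 M per library at ZT15 and 26.0 to 39.7 M at ZT03 (two-sided exact permutation test, p = 0.0571, 0.407 adjusted over 19 library measures). Genes of the mitochondrial genome took 22.7 to 27.4% of counts at ZT15 and 20.02 to 26.7% at ZT03. In replicate 1 of ZT15, 6.53% of reads lay in no gene and 5.92% were ambiguous, above the other 7 libraries (at most 3.98% and 3.24%), and without it 98 genes were called. Cardiomyocyte markers were abundant in every heart, and none of the 12 was called. Atrial markers varied widely between hearts, at 3.59 to 7.09 mean log2 CPM at ZT15 and 3.84 to 6.18 at ZT03. The ranges overlapped (two-sided exact permutation p = 0.543, 0.737 adjusted). Of 11 atrial markers, 10 had a positive log2 fold change of ZT15 over ZT03, with a median of 0.45. Adjusting for the atrial level left 80 calls, as given at the end. The share of atrial tissue in each sample was not tested. Of 13 lists of cell-type markers, only that of neutrophils held a called gene. Its mean level separated the groups, at -1.30 to -0.46 mean log2 CPM in ZT15 hearts against -0.42 to 1.67 in ZT03 hearts (two-sided exact permutation p = 0.0286, the smallest that 4 against 4 allows, 0.407 adjusted). In whole tissue, fewer cells of a type and less RNA per cell cannot be told apart. The p-values measure the spread between these hearts.

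The circadian clock of mammalian cells is a feedback loop of transcription. BMAL1, the product of Arntl, pairs with CLOCK or NPAS2 at E-box elements and switches on the Period and Cryptochrome genes, whose proteins then block the pair. The same activators drive Nr1d1, whose product REV-ERB alpha represses Arntl, and the PAR bZIP factors Dbp, Tef and Hlf, which act at D-box elements that E4BP4 represses. Heart muscle cells run this loop themselves, and it is known to time metabolic and signalling genes in the ventricle.

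At ZT15 the ventricles averaged 39.7 ± 3.19 CPM (counts scaled to library size) of the repressor gene Per2, against 4.06 ± 0.510 CPM at ZT03, and 3.05 ± 0.737 CPM of the activator gene Arntl, against 26.9 ± 5.33 CPM at ZT03 (SD, n = 4 each). In all, 75 genes (0.510% of those tested) were higher at ZT15 and 43 (0.292%) were lower. These shares are the background for the calls in each gene list below. Over all 14716 genes tested, 6855 log2 fold changes were positive, the background for counts of positive values in the lists. Changes of 2-fold or more were seen in 29 of the higher and 17 of the lower genes, and the median log2 fold change was 0.87 among higher and -0.89 among lower genes. Protein-coding genes made up 70 of the 75 and 42 of the 43. In each of the 118, the 4 hearts of one time lay apart from the 4 of the other, which was true of 1055 genes (7.17%) in all. The core clock held 12 of the 118 calls, and outside it the largest changes of genes with an established symbol and a mean of at least 1 log2 CPM were those of Cys1, Angptl7 and Wee1 on the higher side and Spon2, Slc41a3 and Pdk4 on the lower side. The number of calls was sensitive to single hearts: 57, 52 and 56 genes were called without replicate 2, 3 or 4 of ZT15, and 68 without replicate 4 of ZT03.

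**Figure D1:**
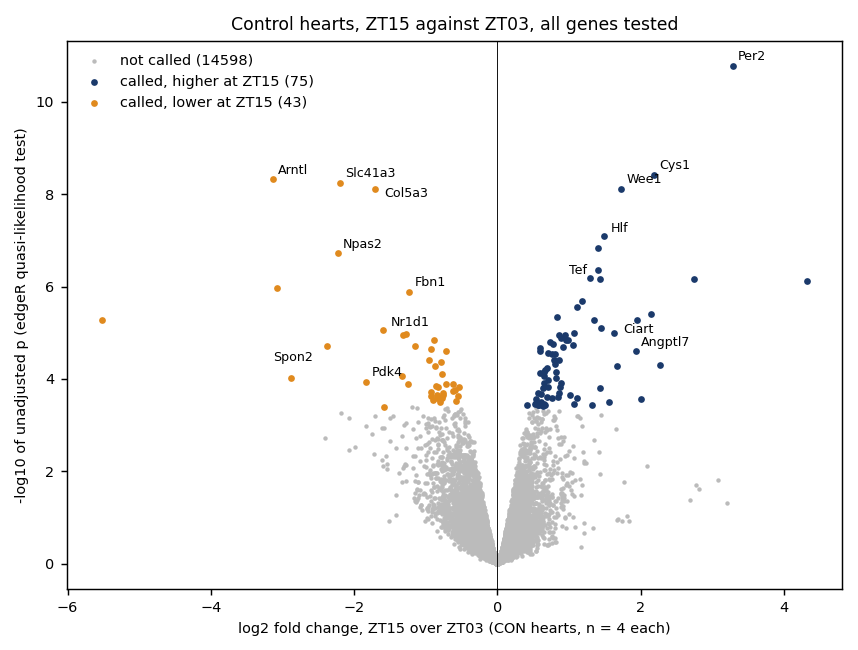
Each point is one of the 14716 genes tested, with the log2 fold change of ZT15 over ZT03 in CON hearts (4 each) across the page and the -log10 of the unadjusted p of edgeR's test up the page. The 75 genes called higher at ZT15 are dark blue and the 43 called lower are orange, and Per2 and Arntl stand farthest out among the named clock genes.

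Among the repressors of the clock, Per2 (chromosome 1, 91415982 to 91459324 in GRCm38, minus strand) had 35.2, 42.4, 41.5 and 39.6 CPM in the ZT15 hearts, against 4.11, 4.65, 4.08 and 3.40 CPM in the ZT03 hearts. Every ZT15 heart was far above every ZT03 heart, and the hearts of each time lay close together. The log2 fold change was 3.29 ± 0.12 (SE, n = 4 each), with an edgeR adjusted p of 2.41e-07. Its relative Per3, also a Period gene, had 46.9, 45.6, 41.7 and 40.3 CPM at ZT15, against 8.53, 18.2, 6.98 and 11.0 CPM at ZT03. The ZT03 hearts varied more, replicate 2 being the highest, without reaching the ZT15 range (1.95 ± 0.24, edgeR adjusted p = 0.00343). Per1 averaged 41.4 ± 9.46 CPM at ZT15 and 25.1 ± 6.31 CPM at ZT03 (SD, n = 4 each). Its groups overlapped and it was not called (0.72 ± 0.19, edgeR adjusted p = 0.141).

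Ciart, which encodes a repressor of the CLOCK and BMAL1 pair, had 6.27, 12.5, 11.0 and 7.54 CPM at ZT15, against 3.14, 3.40, 2.59 and 2.86 CPM at ZT03. The ZT15 hearts varied about 2-fold among themselves, while the ZT03 hearts were level, and the groups did not overlap (1.63 ± 0.22, edgeR adjusted p = 0.00544). The cryptochrome Cry2 averaged 43.9 ± 0.540 CPM at ZT15 and 27.6 ± 3.88 CPM at ZT03 and was called (0.67 ± 0.11, edgeR adjusted p = 0.0162). For its paralog Cry1 the values were 23.7, 23.1, 22.0 and 24.2 CPM at ZT15 against 13.3, 8.67, 19.7 and 10.5 CPM at ZT03. All ZT15 hearts were above all ZT03 hearts here too, but the scatter at ZT03 left Cry1 uncalled (0.84 ± 0.21, edgeR adjusted p = 0.106). Bhlhe41, which encodes the E-box repressor DEC2, averaged 28.4 ± 2.23 CPM at ZT15 and 17.6 ± 3.22 CPM at ZT03 (0.69 ± 0.13, edgeR adjusted p = 0.0386). With 1 heart left out, the call of Bhlhe41 held only without replicate 1 of ZT03 (edgeR adjusted p up to 0.125), and that of Cry2 was lost without replicate 2, 3 or 4 of ZT15 or replicate 4 of ZT03 (up to 0.0791).

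The activating side of the loop was low at ZT15. Arntl (chromosome 7, 113207465 to 113314126, plus strand) had 3.23, 1.98, 3.33 and 3.66 CPM at ZT15, against 21.6, 26.2, 34.3 and 25.5 CPM at ZT03, a log2 fold change of -3.13 ± 0.20 (edgeR adjusted p = 1.91e-05). The lowest ZT03 heart had more than 5 times the CPM of the highest ZT15 heart. Npas2, the alternative partner of BMAL1, had 1.88, 2.07, 1.69 and 1.77 CPM at ZT15, against 6.94, 6.72, 10.9 and 10.3 CPM at ZT03 (-2.23 ± 0.20, edgeR adjusted p = 0.000313). The ZT15 hearts were nearly level, whereas the ZT03 hearts formed a lower and a higher pair. Clock fell less, with 32.8, 20.6, 24.8 and 25.4 CPM at ZT15 and 44.0, 52.2, 49.0 and 43.4 CPM at ZT03 (-0.87 ± 0.14, edgeR adjusted p = 0.0135). The groups of Clock lay apart, although replicate 1 of ZT15 came closest to ZT03, and its call was lost without replicate 3 or 4 of ZT15 (edgeR adjusted p up to 0.0777).

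Among the nuclear receptors of the loop, 1 gene was called. Nr1d1 had 25.3, 33.3, 27.4 and 26.7 CPM at ZT15, against 60.9, 113, 61.1 and 105 CPM at ZT03. Replicates 2 and 4 of ZT03 were the higher pair, and all 4 were above the ZT15 hearts (-1.59 ± 0.21, edgeR adjusted p = 0.00507). Its gene model overlaps that of Thra on the opposite strand, and the sources used here do not say whether the counting used strand. Nr1d2, the gene of REV-ERB beta, averaged 106 ± 14.8 CPM at ZT15 and 76.9 ± 25.7 CPM at ZT03 with overlapping groups and was not called (0.46 ± 0.20, edgeR adjusted p = 0.425).

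Of the PAR bZIP activators, Tef had 223, 222, 218 and 205 CPM at ZT15, against 93.7, 97.8, 67.0 and 69.0 CPM at ZT03 (1.41 ± 0.14, edgeR adjusted p = 0.000642). Hlf had 54.6, 54.2, 56.1 and 44.6 CPM at ZT15, against 18.3, 18.04, 16.2 and 22.3 CPM at ZT03 (1.48 ± 0.12, edgeR adjusted p = 0.000167). In both genes every ZT15 heart had more than any ZT03 heart, and the ZT15 hearts agreed closely except for the lower replicate 4 in Hlf. Dbp, the most strongly cycling member of the family, had 39.5, 65.7, 43.7 and 36.9 CPM at ZT15, against 21.3, 27.9, 5.96 and 24.8 CPM at ZT03. Its groups did not overlap, but the spread within each was wide and it was not called (1.21 ± 0.37, edgeR adjusted p = 0.203). Its gene model overlaps that of Sphk2 on the opposite strand. Their D-box antagonist Nfil3 stood at the same level at both times, with 17.4, 15.2, 16.5 and 19.8 CPM at ZT15 and 15.5, 13.5, 26.0 and 14.5 CPM at ZT03 (-0.01 ± 0.19, edgeR adjusted p = 0.998). Usp2, a clock-controlled ubiquitin protease, averaged 180 ± 16.5 CPM at ZT15 and 93.7 ± 14.6 CPM at ZT03 and was higher (0.94 ± 0.13, edgeR adjusted p = 0.00544).

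Over the whole list of core clock genes, 26 of 27 were tested, of which 8 were higher and 4 lower at ZT15, and the median log2 fold change was 0.35 against -0.01 over all genes. The 14 that were not called included the kinase genes Csnk1d and Csnk1e and the ubiquitin ligase gene Btrc, which act on clock proteins.

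**Figure D2:**
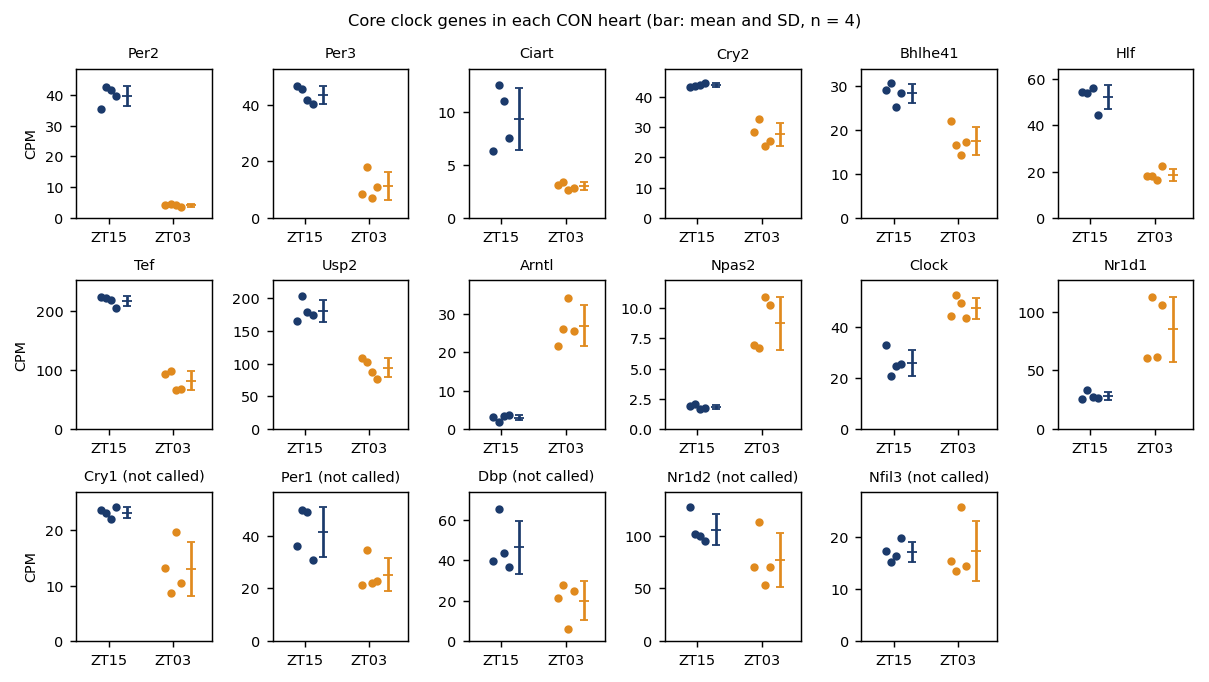
CPM of 17 core clock genes in each of the 4 ZT15 (dark blue) and 4 ZT03 (orange) CON hearts, with mean and SD beside the points. The lower row holds 5 genes that were not called, among them Nfil3 with means of 17.2 and 17.4 CPM.

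Promoters of 11 of the 12 called core clock genes were found in a RefSeq table of GRCm38.p6, from 250 bases before to 50 after a transcription start. They were searched on both strands for CACGTG (the E-box), CACGTT (a weaker E-box form), TTATGTAA or TTACGTAA (the D-box) and TAGGTCA (the element bound by REV-ERB receptors). The 4 shown carry the elements through which the loop described above is known to run, with each match in capitals. Those of Ciart (chr3:95882179-95882478, minus strand), Per3 (chr4:151044616-151044915, minus strand) and Tef (chr15:81802423-81802722, plus strand, the earlier of its listed starts) belong to genes higher at ZT15, and that of Arntl (chr7:113207261-113207560, plus strand, the later of its listed starts) to a gene that was lower.
Ciart: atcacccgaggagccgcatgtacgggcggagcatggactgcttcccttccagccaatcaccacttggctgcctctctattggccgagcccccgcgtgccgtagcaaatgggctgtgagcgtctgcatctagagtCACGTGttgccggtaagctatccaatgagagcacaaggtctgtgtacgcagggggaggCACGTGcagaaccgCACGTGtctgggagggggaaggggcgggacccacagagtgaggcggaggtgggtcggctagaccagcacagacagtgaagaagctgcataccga
Per3: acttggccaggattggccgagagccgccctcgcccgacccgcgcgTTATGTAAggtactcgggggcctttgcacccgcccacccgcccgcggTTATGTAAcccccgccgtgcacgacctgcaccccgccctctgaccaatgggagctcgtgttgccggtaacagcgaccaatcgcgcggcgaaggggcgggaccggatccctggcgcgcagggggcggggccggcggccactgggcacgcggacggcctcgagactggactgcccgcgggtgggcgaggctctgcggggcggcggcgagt
Tef: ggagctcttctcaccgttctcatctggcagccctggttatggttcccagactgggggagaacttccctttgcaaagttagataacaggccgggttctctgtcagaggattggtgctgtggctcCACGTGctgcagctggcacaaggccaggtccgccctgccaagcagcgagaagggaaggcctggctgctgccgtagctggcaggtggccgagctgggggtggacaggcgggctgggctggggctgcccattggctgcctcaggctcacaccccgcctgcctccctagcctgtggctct
Arntl: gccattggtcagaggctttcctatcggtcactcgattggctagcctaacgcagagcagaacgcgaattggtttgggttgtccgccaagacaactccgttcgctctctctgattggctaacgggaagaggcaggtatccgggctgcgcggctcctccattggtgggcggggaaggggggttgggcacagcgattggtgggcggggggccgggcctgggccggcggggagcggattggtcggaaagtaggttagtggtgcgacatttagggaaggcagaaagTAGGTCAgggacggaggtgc
Ciart holds 3 E-boxes, at -116, -58 and -44 from the start, Per3 a pair of D-boxes at -205 and -158, Tef an E-box at -127 and Arntl a TAGGTCA element at +31. Bhlhe41 also has an E-box, at -153, while CACGTT occurs in Cry2 at -166 and in Nr1d1 at -28. The windows of Clock, Hlf, Npas2 and Usp2 and of the earlier start of Arntl held none of these letters.

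Over all called genes, those of the core clock included, 54 of the higher and 33 of the lower genes had a listed promoter. An E-box was found in 8 of the 54 higher genes (14.8%) and in 6 of the 33 lower genes (18.2%), against 11.5% of the 10861 tested genes with a promoter. CACGTT was found in 6 higher genes (11.1%) and in 3 lower genes (9.09%), against 6.32% of tested genes. The D-box was found in 3 higher genes (5.56%) and in 0 lower genes, against 0.8287% of tested genes. TAGGTCA was found in 0 higher and 3 lower genes (9.09%), against 2.19%. These are matches of letters in a window of 300 bases and no measure of binding.

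Genes that the clock is known to time in the heart gave 5 calls among 28 tested, where 0.802% of all genes tested were called. Wee1, a kinase that holds back entry into mitosis and a textbook target of CLOCK and BMAL1, had 34.2, 27.7, 29.9 and 27.1 CPM at ZT15, against 8.34, 9.11, 10.1 and 8.47 CPM at ZT03. The groups were widely apart and even within themselves (1.72 ± 0.11, edgeR adjusted p = 1.91e-05). Tspan4, a tetraspanin gene whose model overlaps that of Chid1, averaged 26.2 ± 4.02 CPM at ZT15 and 13.9 ± 1.56 CPM at ZT03 (0.92 ± 0.13, edgeR adjusted p = 0.00720). Lower at ZT15 were Leo1, of the PAF1 transcription elongation complex (-0.95 ± 0.15, edgeR adjusted p = 0.0111), and Dtx4, a ubiquitin ligase gene of the Notch pathway (-0.79 ± 0.15, edgeR adjusted p = 0.0386). Leo1 lost its call without replicate 2 or 3 of ZT15 (edgeR adjusted p up to 0.0684), and Dtx4 kept it only without replicate 1 of either time (up to 0.157). Tsc22d3 is described with the glucocorticoid-responsive genes. The list as a whole had a median log2 fold change of -0.02, with 13 of 28 values positive, against 6855 of 14716 over all genes.

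Metabolic genes showed few calls in number, where 0.802% of all genes tested were called. Pdk4, the pyruvate dehydrogenase kinase that spares glucose in fasting, had 256, 171, 163 and 350 CPM at ZT15, against 644, 946, 1275 and 479 CPM at ZT03. The groups lay apart, but ZT03 hearts differed by more than 2-fold among themselves (-1.83 ± 0.32, edgeR adjusted p = 0.0245). Its call was lost without replicate 1, 2 or 3 of ZT15 or replicate 3 of ZT03 (edgeR adjusted p up to 0.1095). Ucp3, a mitochondrial carrier gene induced by fatty acids, had 38.8, 29.7, 29.5 and 52.5 CPM at ZT15, against 87.9, 90.5, 109 and 87.3 CPM at ZT03. Every ZT03 heart was above the ZT15 hearts, of which replicate 4 was the highest (-1.31 ± 0.18, edgeR adjusted p = 0.00544). Among 21 tested targets of PPAR alpha that rise in fasting, Pdk4 and Ucp3 were the 2 called, both lower, and 0 were higher. The lipase inhibitor gene Angptl4 had 5.06, 5.74, 3.43 and 13.8 CPM at ZT15 against 23.1, 20.4, 63.6 and 22.2 CPM at ZT03, without overlap and not called (-2.19 ± 0.46, edgeR adjusted p = 0.0609). In the list of fatty acid uptake and oxidation genes, 0 of 37 were called, and Acot1, an acyl-CoA thioesterase gene, came closest (-0.78 ± 0.18, edgeR adjusted p = 0.0832).

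On the glucose side, Ppp1r3b, which encodes a subunit that targets protein phosphatase 1 to glycogen and favours its synthesis, had 72.5, 50.7, 60.0 and 54.0 CPM at ZT15, against 25.4, 27.1, 23.2 and 21.2 CPM at ZT03. Every ZT15 heart was far above every ZT03 heart (1.29 ± 0.13, edgeR adjusted p = 0.000788). Of 42 tested genes of glucose uptake, glycolysis and glycogen, Ppp1r3b was the 1 called higher and Pdk4 the 1 called lower. In that list 28 of 42 values were positive, against 6855 of 14716 over all genes. Among triglyceride and lipogenic genes, 1 of 35 was called. That was Dgat2, which makes triglyceride from diacylglycerol, with 564, 592, 588 and 602 CPM at ZT15 and 400, 293, 363 and 296 CPM at ZT03 (0.80 ± 0.12, edgeR adjusted p = 0.0111). The ZT15 hearts were tightly grouped above all ZT03 hearts. Mid1ip1, whose product promotes polymerization of acetyl-CoA carboxylase and so fatty acid synthesis, averaged 120 ± 15.8 CPM at ZT15 and 52.9 ± 8.02 CPM at ZT03 (1.19 ± 0.13, edgeR adjusted p = 0.00175).

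Insig1, which restrains the processing of the sterol regulator SREBP, averaged 12.98 ± 1.42 CPM at ZT15 and 22.0 ± 3.95 CPM at ZT03 and was lower (-0.76 ± 0.14, edgeR adjusted p = 0.0345). Its groups lay apart, and its call was lost without replicate 2, 3 or 4 of ZT15 or replicate 3 of ZT03 (edgeR adjusted p up to 0.160). It is 1 of 28 tested genes of cholesterol synthesis and uptake, of which 0 were higher, 9 had positive values and the median was -0.18.

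Matrix genes were the other group with several lower members. Fbn1, which encodes fibrillin-1 of the elastic microfibril, had 34.3, 25.1, 29.2 and 25.9 CPM at ZT15, against 64.5, 56.2, 78.1 and 70.7 CPM at ZT03 (-1.23 ± 0.13, edgeR adjusted p = 0.00118). Mmp14, a membrane-bound collagenase, had 8.11, 10.3, 9.99 and 11.1 CPM at ZT15, against 16.3, 16.9, 21.4 and 20.9 CPM at ZT03 (-0.93 ± 0.14, edgeR adjusted p = 0.00771). In both, all ZT15 hearts were well below all ZT03 hearts. Loxl1, which cross-links elastin, averaged 25.4 ± 3.04 CPM at ZT15 and 43.6 ± 8.32 CPM at ZT03 (-0.78 ± 0.15, edgeR adjusted p = 0.0386). In the list of extracellular matrix and TGF-beta genes, 3 of 44 were lower and 1 was higher. There, 13 of 44 values were positive, against 6855 of 14716 over all genes tested, and the median was -0.32. The higher one was Smad7, the feedback inhibitor of TGF-beta signalling (0.54 ± 0.11, edgeR adjusted p = 0.0460). With 1 heart left out, Mmp14 lost its call without replicate 3 of ZT15 (edgeR adjusted p = 0.0558), Loxl1 kept it only without replicate 2 of ZT03 (up to 0.201), and Smad7 only without replicate 1 of ZT15 or replicate 2 of ZT03 (up to 0.174). The fibrillar collagen gene Col3a1 had 129, 127, 125 and 113 CPM at ZT15 and 234, 131, 314 and 304 CPM at ZT03. Its groups stayed just apart, since replicate 2 of ZT03 lay next to the ZT15 hearts, and it was not called (-0.99 ± 0.22, edgeR adjusted p = 0.0730). Of 12 fibroblast markers, including Col3a1, 0 were called and 4 had positive values.

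A pair of matrix genes outside that list had larger changes. Col5a3, a chain of type V collagen, had 13.8, 10.9, 10.8 and 12.5 CPM at ZT15, against 37.1, 36.2, 42.5 and 41.0 CPM at ZT03 (-1.71 ± 0.11, edgeR adjusted p = 1.91e-05). Spon2, a secreted matrix protein gene, had 1.52, 2.21, 2.19 and 1.17 CPM at ZT15, against 11.2, 3.93, 11.3 and 10.3 CPM at ZT03 (-2.38 ± 0.34, edgeR adjusted p = 0.00717). Col5a3 was even within each time, whereas replicate 2 of ZT03 was well below its group in Spon2. The same heart was the lowest of its group in Lingo3, a leucine-rich repeat membrane protein gene, with a mean of 7.43 ± 0.569 CPM at ZT15 against values of 20.8, 11.9, 19.4 and 19.9 CPM at ZT03 (-1.27 ± 0.17, edgeR adjusted p = 0.00544). Slc41a3, a magnesium transporter gene, had 20.3, 17.6, 23.4 and 25.4 CPM at ZT15, against 112, 88.4, 86.8 and 110 CPM at ZT03 (-2.20 ± 0.14, edgeR adjusted p = 1.91e-05). All ZT03 hearts had more than 3 times the level of any ZT15 heart.

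Genes that respond to glucocorticoids gave 3 higher and 1 lower call among 24, where 0.510% of all genes tested were higher and 0.292% lower. Rhobtb1, an atypical GTPase gene, had 171, 180, 201 and 176 CPM at ZT15, against 53.0, 88.2, 86.1 and 57.4 CPM at ZT03 (1.35 ± 0.17, edgeR adjusted p = 0.00343). Tsc22d3, which encodes the glucocorticoid-induced leucine zipper protein GILZ, had 115, 122, 118 and 103 CPM at ZT15, against 74.9, 71.4, 64.7 and 57.1 CPM at ZT03 (0.77 ± 0.11, edgeR adjusted p = 0.00682). The groups lay apart in both genes, and the ZT03 hearts of Rhobtb1 formed a lower and a higher pair. The third higher gene was Pik3r1, the regulatory subunit of phosphoinositide 3-kinase (0.64 ± 0.13, edgeR adjusted p = 0.0493), and the lower one was Pdk4. In insulin and mTOR signalling, 3 of 42 genes were higher and 0 lower: Pik3r1, Trib1 (0.63 ± 0.11, edgeR adjusted p = 0.0289) and Sesn1. Sesn1, a brake on mTOR complex 1, averaged 165 ± 4.81 CPM at ZT15 and 109 ± 5.46 CPM at ZT03 (0.60 ± 0.09, edgeR adjusted p = 0.00811). Pik3r1 kept its call only without replicate 2 of ZT03 (edgeR adjusted p up to 0.181), and Trib1 only without replicate 1 or 2 of ZT03 (up to 0.113).

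The heat shock, endoplasmic reticulum and ATF4 lists gave 1 higher call each, where 0.510% of all genes tested were higher. Dnajb1, an HSP40 co-chaperone of the heat shock response, had 31.9, 24.2, 31.9 and 27.4 CPM at ZT15, against 17.7, 12.7, 13.1 and 14.9 CPM at ZT03 (0.98 ± 0.14, edgeR adjusted p = 0.00605). It was the 1 gene called among 31 heat shock and temperature genes, of which 23 had positive values. Herpud1, which serves degradation at the endoplasmic reticulum, had 247, 300, 289 and 334 CPM at ZT15, against 151, 203, 156 and 121 CPM at ZT03 (0.89 ± 0.16, edgeR adjusted p = 0.0253). The other tested members of its list went against it in number: 4 of 26 values, Herpud1 included, were positive, and the median was -0.18. Ddit3, the stress transcription factor CHOP, had 19.04, 28.7, 22.4 and 25.9 CPM at ZT15 and 16.3, 11.3, 11.4 and 13.5 CPM at ZT03 (0.87 ± 0.16, edgeR adjusted p = 0.0285), and was the 1 gene called among 26 of the ATF4 response. Its gene model overlaps Mars on the opposite strand. Herpud1 and Ddit3 kept their calls only without replicate 1 of ZT15 or replicate 1 or 2 of ZT03 (edgeR adjusted p up to 0.1098 and 0.109).

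Immediate early genes gave 2 higher calls among 28 tested, where 0.510% of all genes tested were higher. Their median was -0.21, with 10 positive values. Ier3, a survival gene of this class, had 42.2, 48.6, 53.4 and 48.4 CPM at ZT15, against 20.3, 20.3, 15.1 and 17.3 CPM at ZT03 (1.40 ± 0.12, edgeR adjusted p = 0.000271). Ier5 averaged 41.7 ± 5.86 CPM at ZT15 and 22.9 ± 3.34 CPM at ZT03 (0.87 ± 0.13, edgeR adjusted p = 0.0111). Among 39 oxidative stress and xenobiotic genes, the glutathione transferase Gsta3 (1.43 ± 0.15, edgeR adjusted p = 0.000788) and the retinaldehyde dehydrogenase Aldh1a1 (0.77 ± 0.11, edgeR adjusted p = 0.00853) were higher. Gsta3 averaged 18.9 ± 3.32 CPM at ZT15 and 7.01 ± 0.772 CPM at ZT03, and Aldh1a1 37.9 ± 4.61 CPM at ZT15 and 22.3 ± 1.93 CPM at ZT03. Hdac4, a class II histone deacetylase that restrains growth genes of the myocyte, was the 1 called among 25 hypertrophy genes (0.65 ± 0.11, edgeR adjusted p = 0.0195). It kept its call only without replicate 1 of ZT15 or replicate 1 or 2 of ZT03 (edgeR adjusted p up to 0.0856), and Ier5 lost it without replicate 4 of ZT03 (0.0528).

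In the inflammation list 2 of 36 genes were lower, where 0.292% of all genes tested were. S100a8, an alarmin of neutrophils, had 0.314, 0.235, 0.248 and 0.151 CPM at ZT15, against 1.82, 1.90, 2.76 and 0.572 CPM at ZT03 (-2.88 ± 0.49, edgeR adjusted p = 0.0214). Its partner S100a9 averaged 0.386 ± 0.183 CPM at ZT15 and 2.04 ± 1.32 CPM at ZT03 with overlapping groups and was not called (-2.41 ± 0.60, edgeR adjusted p = 0.106). S100a8 is one of 9 neutrophil markers, of which 3 had enough counts to be tested and all 3 had negative values. The defining markers Ly6g, Cxcr2, Camp and Ngp were among the 6 too low to test, and the part of neutrophils in the values of S100a8 was not tested. The second lower gene was the chemokine Cx3cl1 (-0.84 ± 0.16, edgeR adjusted p = 0.0369). S100a8 lost its call without any 1 of the ZT15 hearts (edgeR adjusted p up to 0.104), and Cx3cl1 kept it only without replicate 1 of ZT15 or replicate 1 or 4 of ZT03 (up to 0.159).

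Other genes with large changes belong to no list. Cys1, the gene of the cilium protein cystin 1, had 12.4, 15.96, 14.8 and 15.8 CPM at ZT15, against 3.53, 2.75, 3.33 and 3.40 CPM at ZT03 (2.18 ± 0.14, edgeR adjusted p = 1.91e-05). Its ZT15 hearts were all more than 3 times the highest ZT03 heart. Angptl7, a secreted angiopoietin-like protein gene, had 10.9, 8.85, 15.7 and 22.1 CPM at ZT15, against 2.95, 2.91, 4.25 and 4.96 CPM at ZT03 (1.93 ± 0.28, edgeR adjusted p = 0.00811). In Angptl7 the ZT15 hearts spread widely but stayed above ZT03. Lonrf1, a RING finger protein gene (1.44 ± 0.19), and Cntfr, the receptor of ciliary neurotrophic factor (1.32 ± 0.26), were also higher, and the adhesion gene Clmp (-1.15 ± 0.16) and Dpy19l3 (-1.25 ± 0.22) were lower, with edgeR adjusted p of 0.00489, 0.0475, 0.00717 and 0.0258. Cntfr kept its call only without replicate 1 of ZT15 or replicate 4 of ZT03 (edgeR adjusted p up to 0.155), and Dpy19l3 only without replicate 1 of ZT15 or replicate 1 or 2 of ZT03 (up to 0.122). Both Gm45819 and Fabp7, picked out after their values were seen, had larger fitted changes than Cys1. Gm45819, a gene model with a provisional symbol and no known role, had 27.2, 17.3, 23.2 and 21.04 CPM at ZT15, against 1.59, 3.76, 5.07 and 2.70 CPM at ZT03 (2.75 ± 0.28, edgeR adjusted p = 0.000788). It ends at base 110121740 of chromosome 7, just before the start of Wee1 at 110122046 on the same plus strand. Whether its reads are transcription of the Wee1 locus was not tested, so the 2 may not be separate changes. Fabp7, a fatty acid binding protein gene, was at a low level, with at most 0.0448 CPM in any ZT15 heart and 0.442 to 0.980 CPM in the ZT03 hearts.

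**Figure D3:**
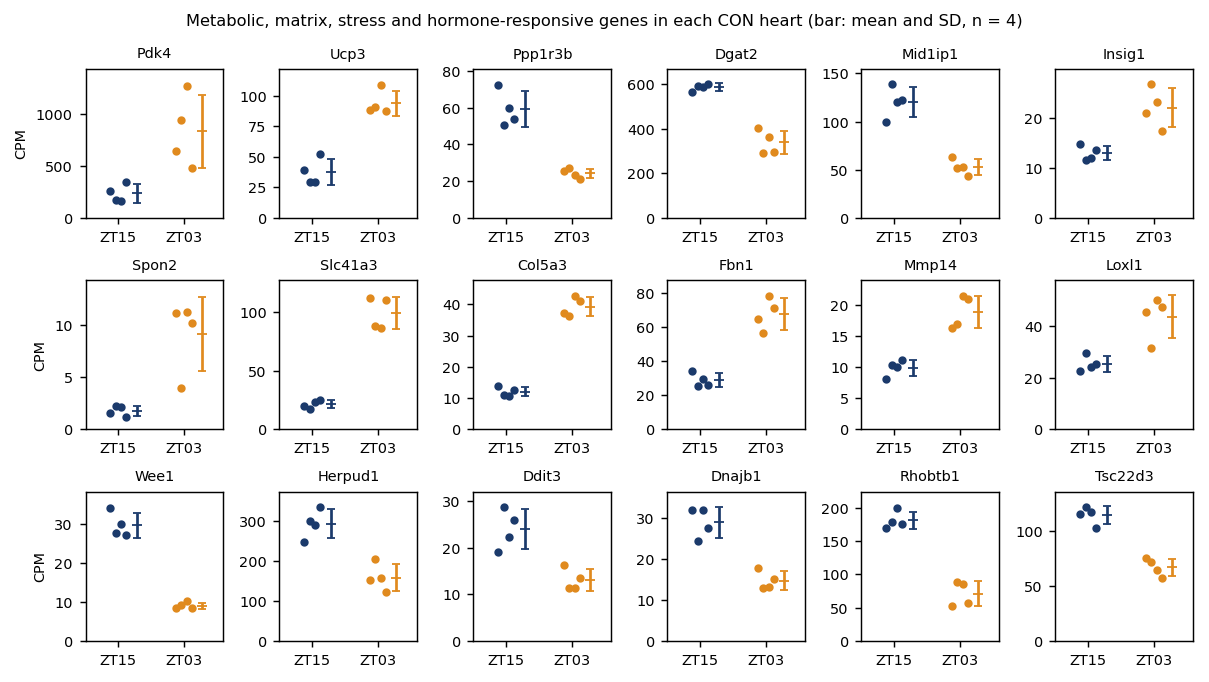
CPM of 18 called genes of metabolism, matrix, stress and hormone response in each of the 4 ZT15 (dark blue) and 4 ZT03 (orange) CON hearts, with mean and SD beside the points. In each panel the groups lie apart, narrowly in Loxl1, Ddit3 and Spon2 and widely in Slc41a3, Col5a3 and Wee1.

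Lists of the contractile, electrical and respiratory machinery gave 0 calls, where 0.802% of all genes tested were called. This held for 29 tested genes of the sarcomere and Z-disc, 45 of ion channels and calcium handling, 34 of adrenergic and cyclic AMP signalling, 48 nuclear genes of oxidative phosphorylation, 31 of the proteasome, 39 of ribosome biogenesis and polyamines, 34 of protein breakdown and autophagy, 27 of ketone and branched-chain amino acid catabolism and 21 of NAD synthesis. At that share most lists of these lengths would hold no call, so the 0 calls do not set these genes apart. On the curve of the other 24 CON hearts, described below, 4 adrenergic and cyclic AMP genes were called lower and 1 higher. Ion channels had 1 call each way there, and the ketone, ribosome biogenesis and NAD lists 1 higher each. In the 8 hearts, the smallest adjusted p in all these lists was that of Amd1, the enzyme gene that supplies polyamine synthesis (0.71 ± 0.15, edgeR adjusted p = 0.0570). Trim63, the muscle ubiquitin ligase MuRF1, averaged 168 ± 5.06 CPM at ZT15 and 223 ± 13.9 CPM at ZT03 (-0.41 ± 0.09, edgeR adjusted p = 0.0701). Kcnj12, an inward rectifier potassium channel gene, had a log2 fold change of 0.49 ± 0.11 (edgeR adjusted p = 0.0708). In data simulated with the means and library sizes of these hearts, the test recovered 16% of changes of 0.5 on the log2 scale and 92% of changes of 1, so changes of the size of Trim63 and Kcnj12 were mostly below what 4 against 4 hearts detect. Only genes with a mean of at least 1 log2 CPM were changed, and shifts shared by many genes of a heart were not simulated. The shares may thus be too high for real hearts.

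The other 24 CON hearts, which share no heart with the comparison, gave a separate view of the same interval. A 24-h cosine curve was fitted to them and the difference between ZT15 and ZT03 read from the curve. By that measure 490 of 15629 genes (3.14%) differed at an edgeR adjusted p of 0.05, 254 (1.63%) higher and 236 (1.51%) lower. Of the 75 genes higher in the 8 hearts, 72 had the same sign on the curve and 53 passed the test there in the same direction. Of the 43 lower genes, 40 had the same sign and 27 passed. In 0 genes was the difference called in opposite directions. A 24-h rhythm was called in 1724 genes (11.0%) of the other 24 hearts, in 63 of the 75 higher and in 32 of the 43 lower genes. On a 24-h cosine, a peak between ZT9 and ZT21 is the same as a higher value at ZT15 than at ZT03. All 63 peaked in that window and 0 of the 32 did, which restates their sign on the curve and is no separate support. Conversely, of 1691 genes that were rhythmic there and tested here, 95 were called between ZT15 and ZT03.

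**Figure D4:**
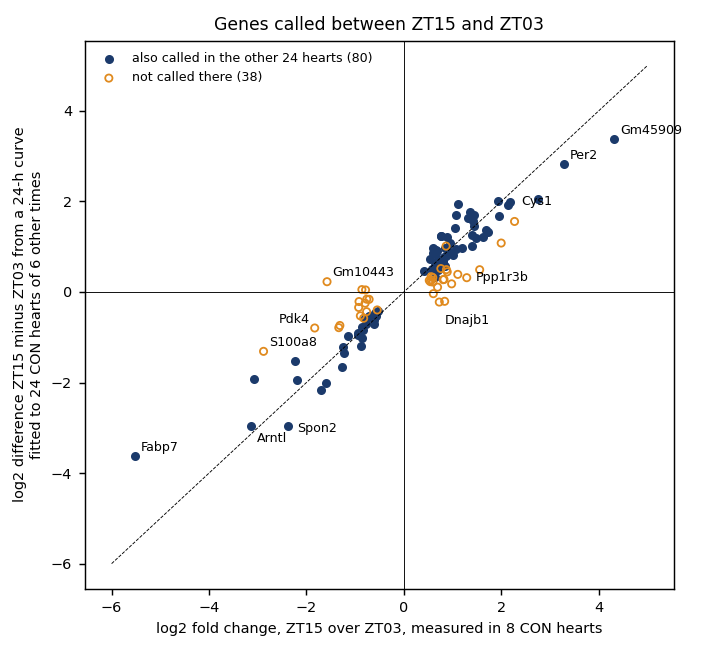
For the 118 called genes, the log2 fold change measured in the 8 CON hearts is plotted across the page and the difference read from a 24-h curve through 24 other CON hearts up the page; the dashed line marks equality. The 80 genes also called there (filled) lie along the line, and the 38 others (open), among them Pdk4, Ppp1r3b and Dnajb1, lie mostly nearer to 0 on the curve. The split uses the test of the difference plotted up the page, so that nearness to 0 follows from the split.

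Where in its cycle a gene stood at the 2 times differed between clock genes. Per2 peaked at ZT13.1 on the curve of the other 24 hearts and Wee1 at ZT14.1, so ZT15 lay near their crest, and for Slc41a3, with a peak at ZT1.7, ZT03 did. Dbp, with the largest amplitude of the PAR bZIP genes (2.34 in log2), peaked at ZT9.8, and both times lay on its flanks: CON means were 20.1 ± 9.77 CPM at ZT03, 147 ± 9.09 CPM at ZT9 and 46.7 ± 13.1 CPM at ZT15. Nfil3 peaked at ZT21.0, with 17.4 ± 5.83 CPM at ZT03, 6.34 ± 1.35 CPM at ZT9 and 17.3 ± 1.98 CPM at ZT15. Its equal levels at ZT15 and ZT03 were thus a crossing on the way up and on the way down. Cry1 peaked at ZT18.8, later than Cry2 at ZT11.8. Among genes with a called rhythm in the other 24 hearts, Per1 was called there by the curve (1.81, edgeR adjusted p = 0.00200) but had a log2 fold change of 0.72 in the 8 hearts.

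**Figure D5:**
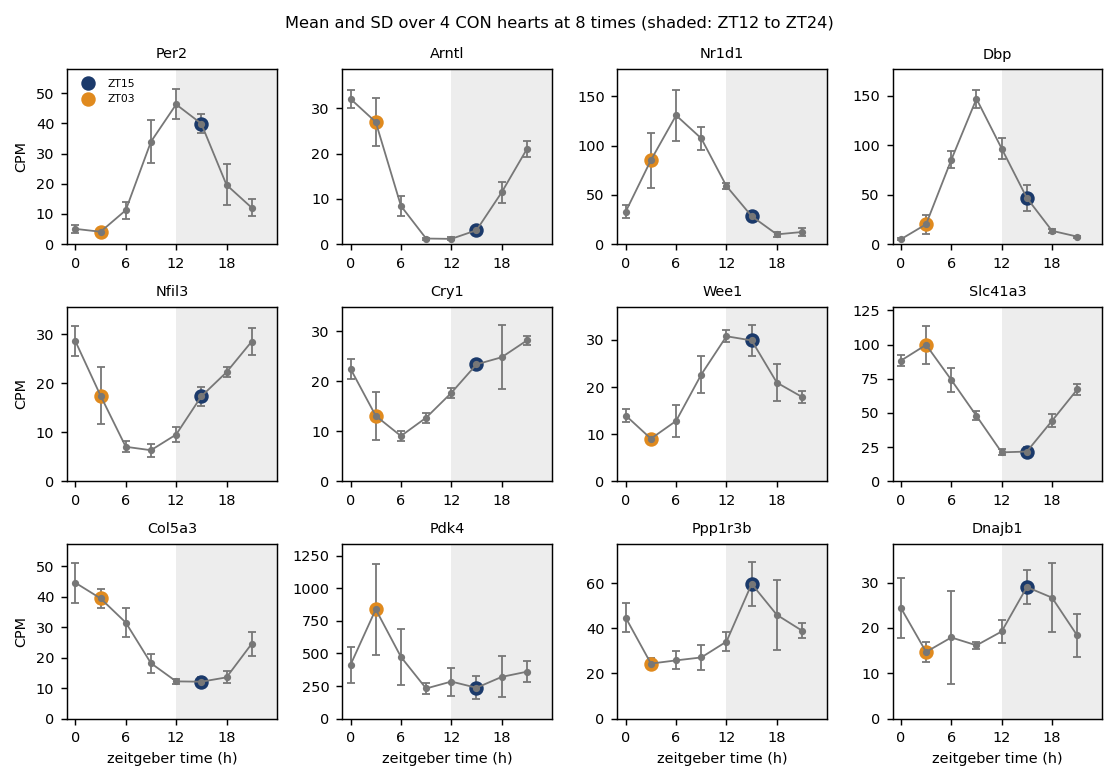
Mean and SD of CPM over 4 CON hearts at each of 8 zeitgeber times for 12 genes, with ZT15 in dark blue, ZT03 in orange and ZT12 to ZT24 shaded. Per2 and Wee1 stand near their crest at ZT15, Arntl and Col5a3 near their trough, and Nfil3 at equal height at both times.

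For several metabolic and stress genes the curve gave a smaller difference than the 8 hearts. Pdk4 differed by -1.83 in the 8 hearts and by -0.80 on the curve (edgeR adjusted p = 0.314), and Ucp3 by -1.31 and -0.74 (edgeR adjusted p = 0.226). Ppp1r3b differed by 1.29 in the 8 hearts and by 0.32 on the curve (edgeR adjusted p = 0.623), and Dnajb1 by 0.98 and 0.18 (edgeR adjusted p = 0.926). CON means of Pdk4 were 840 ± 352 CPM at ZT03 and 474 ± 213 CPM at ZT6, with the other 6 times between 231 and 413 CPM. Those of Ppp1r3b were 59.6 ± 9.65 CPM at ZT15, 34.1 ± 4.30 CPM at ZT12 and 45.9 ± 15.6 CPM at ZT18. The highest mean of Pdk4 was thus that of ZT03 and the highest of Ppp1r3b that of ZT15, neither of which entered the curve. Insig1 (-0.16), Bhlhe41 (0.11), S100a8 (-1.31) and Smad7 (0.23) were likewise not called on the curve. By contrast, Dgat2 differed by 0.80 in the 8 hearts and by 0.66 on the curve (edgeR adjusted p = 4.26e-05). Mid1ip1 differed by 1.19 and 0.96 (edgeR adjusted p = 0.00265). Gsta3 (1.43 in the 8 hearts, 1.57 on the curve) and Aldh1a1 (0.77 and 1.24) were also called on the curve. Of 24 glucocorticoid-responsive genes, 16 were called higher on the curve and 0 lower, where the 8 hearts gave 3 higher and 1 lower. In the matrix list the curve called 13 of 44 lower and 1 higher, and in the core clock list 13 of 26 higher and 4 lower.

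The same interval was compared in CEK hearts, in 1 fit of 16 libraries with 4 hearts of each genotype and time. There, 344 of 15439 genes (2.23%) differed between ZT15 and ZT03 in CEK and 290 (1.88%) in CON. All 75 higher and all 43 lower genes of the 8 CON hearts had the same sign in CEK, and 63 and 35 of them were called there in the same direction, where 1.06% of all genes tested were called higher and 1.17% lower. The change itself was not called different between genotypes for any gene in edgeR (0 of 15439 at an adjusted p of 0.05), while 271 (1.76%) had an unadjusted p under 0.05, and DESeq2 called 1, Nfil3. Nfil3 differed by -1.51 ± 0.21 between ZT15 and ZT03 in CEK and by -0.01 in CON, a difference of -1.50 (unadjusted p = 4.01e-05, edgeR adjusted p = 0.619). It is the deleted gene, and its counts in CEK come from what RNA of it remained. Wee1 differed by 1.05 ± 0.12 in CEK and by 1.72 in CON (difference -0.68, unadjusted p = 0.00114), and Rhobtb1 by 0.74 ± 0.18 in CEK and by 1.35 in CON (difference -0.61, unadjusted p = 0.0245), neither past the correction. Per2 changed by 3.10 ± 0.23 in CEK and 3.29 in CON, and Arntl by -2.92 ± 0.17 in CEK and -3.13 in CON. The simulated test recovered 60% of genotype differences of 1 on the log2 scale and 18% of those of 0.5, so differences of the size seen for Wee1 could be missed.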

How the data were processed

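RNA from both ventricles of single mice was turned into libraries with a SMARTER mRNA-Seq kit, per the labels' protocols. The authors deposited 1 table of whole-number counts of reads per gene for 64 libraries. Per the submitters' processing notes, bcl2fastq 2.18.0.12 made the reads, STAR 2.6.1d aligned them to GRCm38 and HTSeq 0.11.1 counted them. Annotation release, strand setting and filters: not given in the sources used here. The 5 summary rows of the table were left out of all fits: reads in no gene, ambiguous reads and reads with several locations came to 3.19 to 6.53%, 3.00 to 5.92% and 30.8 to 36.8% of all in the 8 libraries. Gene names came from GENCODE M21, which matched 48349 of 48795 rows, 41341 of them with the same version.

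From these counts, genes were kept by filterByExpr (minimum count 10, minimum total 15) within each comparison, libraries were scaled by TMM, and edgeR 4.0.16 in R 4.3.3 fitted 2 group means to the 8 libraries (quasi-likelihood test, 6 residual degrees of freedom, Benjamini-Hochberg over all 14716 genes). Fold changes are log2 of ZT15 over ZT03, and log2 CPM used a prior count of 2. A second fit took the other 24 CON libraries with an intercept, cosine and sine of 24 h and tested the difference between ZT15 and ZT03 that the curve gives. Another took the 4 groups of 16 libraries, with the genotype difference of the change as a contrast. Amplitudes run from mean to peak. Library measures were compared by two-sided exact permutation tests over 70 splits. Within groups, the 12 pairs of libraries differed by at least 10.9 times sampling noise, so no library was a copy of another.

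The comparison, the 40 gene lists (27 pathways, 13 cell-type markers) and the rule for named genes were chosen with earlier results of these data known. Named were the 15 largest rises and 15 largest falls among calls at a mean of 1 log2 CPM or more with groups apart and an established symbol, then all core clock genes, and from every other list its 4 lowest p-values; the text gives those that bear on a group it describes. Dtx4, Gm45819 and Fabp7 lie outside the rule and were named after their values were seen. Values of some genes chosen by this rule are left out of the text. For the genotype difference the rule asked for called genes, of which there were 0.

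On simulated counts of 14716 genes, 200 of them changed, the test of ZT15 against ZT03 made 160 calls, 9 of them false. The counts of each gene were drawn independently of other genes. Alternatives were DESeq2 1.42.0, RLE scaling, mitochondrial genes left out, other filters, voom with quality weights (limma 3.58.1), fits on 32 or 64 libraries, the atrial marker score as a covariate, the replicate number as a block, 12-h terms in the curve, and each library left out in turn.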

Additional observations from a re-analysis of the deposited data

Results flagged for a closer look

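In 140 groups of 4 values (named genes and library measures at each time), 8 held a heart far from the other 3, and chance alone gives about 5% of groups. At ZT15, Hlf was lowest in replicate 4 at 44.64 CPM and Ier5 highest in replicate 2 at 50.47 CPM. At ZT03, replicate 2 was lowest in Spon2 at 3.927 CPM, in Lingo3 at 11.92 CPM and in the score of skeletal muscle markers at 1.342 mean log2 CPM. Ucp3 was highest in replicate 3 of ZT03 at 108.8 CPM. In replicate 1 of ZT15, 6.528% of reads lay in no gene and 5.925% were ambiguous. Without these hearts the calls of Hlf, Spon2, Lingo3, Ucp3 and Ier5 remained.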

How the results depend on the processing

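All 118 called genes kept their sign under each alternative that tested them. The count of 118 (75 higher, 43 lower) was 118 (76 and 42) with RLE scaling, 119 (77 and 42) without mitochondrial genes and 113 (71 and 42) with a filter of 1 CPM in 4 libraries. It was 380 (203 and 177) in DESeq2, 236 (131 and 105) with no low-count filter, 475 (235 and 240) in voom with quality weights, 447 (215 and 232) in a fit of 32 CON libraries and 470 (218 and 252) in a fit of 64 libraries. With the atrial marker score of each library as a covariate it was 80 (52 and 28), of which 72 were shared; among the genes that lost their calls were Bhlhe41, Cx3cl1, Ddit3, Herpud1, Insig1, Loxl1, Pdk4, Pik3r1, S100a8 and Smad7. Without 1 library it ran from 52 to 152, with 38 to 89 higher and 13 to 63 lower; 48 genes were called in all 8 such fits. The cause of these shifts was not tested; fits that leave out a library have fewer samples.

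The correlation of deviations between hearts of the same replicate number was -0.20, -0.31, 0.16 and 0.03, against -0.18 to 0.29 between hearts of different numbers. No pairing by number was seen, but so few values, centred within each group, cannot show that the numbers share no source. With the replicate block 34 genes (21 higher, 13 lower) were called, 33 of them shared with the main result.

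The genotype difference gave 1 gene, Nfil3, in DESeq2 and 1, Nfil3, in the fit of 64 libraries, 0 with the replicate block, and 0 to 1 without 1 library. The other 24 CON hearts gave 859 calls with voom, 485 with 12-h terms, 513 without replicate 3 of ZT18 and 458 with the block, against 490, and the 80 genes called in both were 80 to 86. In the matrix list, DESeq2 called 10 genes lower, voom 13 and the fit of 32 libraries 6, against 3. For named genes 3285 alternative values were computed, of which 131 lost a call, 166 gained one and 0 called values changed sign; 26 uncalled values did. The p-values rest on 4 hearts a group, at which the simulated test recovered 16% of changes of 0.5 in log2; depth was not varied.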
